A study of Mus musculus with 12 samples.

Results

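Tight junctions are the most apical of the junctions between intestinal epithelial cells, and they set how easily ions, water and larger solutes pass between cells. Claudins form the strands of the junction: some seal the space between cells and others, such as Cldn15 and Cldn2, form pores that let small cations through, which in the small intestine returns sodium to the lumen for nutrient uptake. Occludin and the junctional adhesion molecules sit in the same membrane domain, and ZO proteins anchor them to the actin cytoskeleton.

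The expression of 9 barrier genes, given as a list of symbols, was followed along the small intestine: the claudins Cldn3, Cldn4, Cldn7, Cldn8, Cldn15 and Cldn23, occludin (Ocln), the scaffold protein ZO-1 (Tjp1) and junctional adhesion molecule A (F11r). They are 9 of 11924 genes tested. RNA from scrapings of the mucosa had been hybridised to 12 Mouse Gene 1.0 ST arrays (Affymetrix). The donors were male C57BL/6J mice, 4 months (young) or 21 months (old) of age. The mice, purchased at both ages and housed individually, first ate chow and then a semi-synthetic low-fat diet. For the last 2 weeks they either stayed on that diet, with fat as 10% of the energy, or went to a palm oil-based high-fat diet, with fat as 45%. The small intestine was divided into a proximal, a middle and a distal segment, and there was 1 array for each segment, age and diet, loaded with RNA pooled from 6 young or 8 old mice. All segments of 1 pool are from the same mice, so the 12 arrays represent 4 pools: young low-fat, young high-fat, old low-fat and old high-fat. A pool gives no spread between mice. Values are log2 intensities from the Robust Multi-array Average method (RMA), and they are compared between arrays for 1 gene, never between genes.

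Each of the 9 genes had 1 probe set with a single symbol, and all 9 passed the limit of an intensity over 50 on at least 1 array. Cldn8 passed only through the distal segment: its intensity was 32.9 to 47.5 on the 8 proximal and middle arrays and 79.3 to 158 on the 4 distal arrays. It was therefore bound to differ along the intestine once it was kept. The other 8 genes were over the limit on all 12 arrays.

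The segment labels matched the segment markers. The mean of 6 proximal markers (Gata4, Lct and others) was 9.65 to 10.27 on proximal, 7.68 to 7.83 on middle and 7.48 to 7.57 on distal arrays, and the mean of 5 distal markers (Fabp6, Slc10a2 and others) was 6.67 to 7.32, 8.42 to 9.75 and 11.28 to 11.43. The scrapings also held other cells. The mean of 8 epithelial markers was 11.88 to 11.95 on proximal, 12.01 to 12.14 on middle and 12.22 to 12.24 on distal arrays, and that of 8 smooth muscle markers was 6.34 to 7.17, 6.96 to 7.63 and 7.36 to 8.87. Fewer cells of a type and less RNA per cell cannot be told apart in such samples.

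The 250 bases before the transcription start were read from RefSeq (GRCm38.p6) for 7 of the 9 genes. Cldn8 and Cldn23 had no entry. Those of Cldn15, which was lower distally, and of Cldn3, Cldn7 and Tjp1, which were higher distally, are shown to set genes of opposite course side by side. Capitals mark matches to 3 short motifs on either strand: GGGCGG (SP1 box), CACCTG (the E-box bound by SNAIL factors) and AACCGG (bound by grainyhead-like factors). In Cldn7 the last 2 motifs lie directly next to each other, without overlap. The windows are chr5:136967619-136967868 (plus strand) for Cldn15, chr5:134985964-134986213 (plus) for Cldn3, chr11:69965171-69965420 (plus) for Cldn7 and chr7:65371245-65371494 (minus) for Tjp1, each written 5′ to 3′ in the direction of transcription.
Cldn15: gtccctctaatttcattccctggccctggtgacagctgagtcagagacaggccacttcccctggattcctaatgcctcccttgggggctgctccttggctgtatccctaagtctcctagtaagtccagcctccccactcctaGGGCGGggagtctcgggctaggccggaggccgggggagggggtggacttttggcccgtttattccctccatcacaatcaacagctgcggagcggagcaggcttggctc
Cldn3: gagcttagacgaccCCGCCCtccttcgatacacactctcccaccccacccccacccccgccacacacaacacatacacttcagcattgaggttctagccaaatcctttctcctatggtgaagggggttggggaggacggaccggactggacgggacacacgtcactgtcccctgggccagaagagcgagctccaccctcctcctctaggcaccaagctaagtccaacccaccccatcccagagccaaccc
Cldn7: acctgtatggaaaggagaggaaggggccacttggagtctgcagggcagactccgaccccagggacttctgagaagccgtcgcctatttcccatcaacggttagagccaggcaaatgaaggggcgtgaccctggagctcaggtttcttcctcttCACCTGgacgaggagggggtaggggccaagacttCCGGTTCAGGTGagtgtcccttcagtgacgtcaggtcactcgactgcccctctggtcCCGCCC
Tjp1: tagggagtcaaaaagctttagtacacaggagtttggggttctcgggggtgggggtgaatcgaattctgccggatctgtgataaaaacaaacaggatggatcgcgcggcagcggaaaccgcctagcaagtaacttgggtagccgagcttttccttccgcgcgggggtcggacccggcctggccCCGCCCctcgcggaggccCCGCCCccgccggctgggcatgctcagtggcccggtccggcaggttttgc
The 7 genes had 9 windows, since Cldn7 and Ocln have 2 start sites each, and a gene was counted where any of its windows held a match. The other window of Cldn7 (chr11:69964529-69964778) is not shown and held no match. An SP1 box was found for all 7 genes, and for 35.4% of the 27025 genes in the RefSeq table (32.7% of its 32851 windows). The SNAIL E-box was found for Cldn4, Cldn7, Ocln and F11r (4 of 7, against 19.4% of genes and 17.2% of windows) and the grainyhead-like motif for Cldn7 and Ocln (2 of 7, against 6.4% and 5.62%). The motif TTTATG, a core of sites for CDX factors, and CAAAGT, part of sites for HNF4, were found for 0 of 7, for 12.4% and 14.1% of genes and in 10.8% and 12.6% of windows. The RefSeq shares were taken without a choice by expression or gene type, so that background is not matched to the 7 genes. No search was made outside these windows. Cldn3 and Cldn4 are next to each other on chromosome 5, and Ocln lies next to Marveld2, which encodes tricellulin, on chromosome 13.

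The first comparison was between the segments. From proximal to distal, Cldn8, Cldn3, Cldn7 and Tjp1 were higher, and Cldn15 and Cldn4 were lower, so that 6 of the 9 genes passed the test (limma, Benjamini-Hochberg adjusted p under 0.05 over all genes, pool as a block). Of all 11924 genes tested, 54.8% passed in the same comparison, 27.3% as higher and 27.5% as lower, and the count of 6 of 9 is near that share. It includes Cldn8, which was kept only through its distal arrays; of the other 8 genes 5 passed.

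Cldn8, a claudin that limits cation passage, had the widest range of the 9 genes. On the proximal arrays its log2 intensity was 5.26 in the young low-fat, 5.09 in the young high-fat, 5.06 in the old low-fat and 5.04 in the old high-fat pool. The middle arrays read 5.57, 5.56, 5.55 and 5.25 in the same order of pools. The distal arrays read 7.31, 6.63, 7.10 and 6.31. All 4 distal arrays were thus above all 8 other arrays, and all of those 8 were under the intensity limit. The distal level exceeded the proximal by 1.72 (SE 0.13, 3.30-fold) and the middle by 1.36 (SE 0.13). As the intensity limit had kept Cldn8 through these arrays, the p-values are those of the fit with no intensity filter (limma adjusted p = 1.18e-06 and 2.67e-05). The difference of 0.37 between middle and proximal did not pass in it (adjusted p = 0.0831). On the middle arrays the mean of the distal segment markers was 9.15, 9.75, 8.96 and 8.42 in the same order of pools. Both this mean and Cldn8 were lowest in the old high-fat pool, but Cldn8 was nearly level in the other pools. A link between them was not tested.

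Cldn15, the claudin that forms sodium-permeable pores, followed the opposite course. In the proximal segment it was at 11.52 in the young low-fat, 11.22 in the young high-fat, 11.42 in the old low-fat and 11.17 in the old high-fat pool. The middle arrays read 11.22, 10.90 and 11.21 in the first 3 of these pools, with the old high-fat pool at 0.21 under the old low-fat pool, and the distal arrays read 10.52, 10.42, 10.40 and 10.28. Every distal array was below every other array, while middle and proximal arrays overlapped. The level fell by 0.93 from proximal to distal (SE 0.06, 1.90-fold, limma adjusted p = 8.49e-07), by 0.68 from middle to distal (adjusted p = 2.56e-05) and by 0.25 from proximal to middle (adjusted p = 0.0144). The last of these calls did not hold without the young low-fat pool (adjusted p = 0.0792), the young high-fat pool (adjusted p = 0.0596) or the old low-fat pool (adjusted p = 0.0561).

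Cldn3 and Cldn7, both broadly expressed epithelial claudins, were a little higher distally. In pools ordered as above, Cldn3 was at 10.49, 10.51, 10.53 and 10.55 proximally, at 10.61, 10.75, 10.54 and 10.71 in the middle segment and at 10.87, 10.87, 10.83 and 10.94 distally. Cldn7 was at 11.24, 11.15, 11.12 and 11.12, then 11.33, 11.35, 11.33 and 11.20, then 11.51, 11.52, 11.48 and 11.57. For both genes the 4 distal arrays lay above all others, and proximal and middle arrays overlapped. The distal minus proximal difference was 0.36 for Cldn3 (SE 0.05, limma adjusted p = 2.63e-04) and 0.36 for Cldn7 (SE 0.06, adjusted p = 3.17e-04). Against the middle segment the differences were 0.23 (adjusted p = 0.0088) and 0.22 (adjusted p = 0.0127). The call of Cldn3 against the middle did not hold without the young low-fat (adjusted p = 0.0551) or the old low-fat pool (adjusted p = 0.0640), and that of Cldn7 without the old low-fat pool (adjusted p = 0.0505).

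Tjp1, the ZO-1 scaffold, was at 9.64, 9.80, 9.62 and 9.70 in the proximal segment, in the same order of pools. The middle arrays read 9.96, 10.06, 9.92 and 9.98, and the distal arrays 10.04, 10.01, 10.16 and 10.30. All middle and distal arrays were above all proximal arrays, and middle and distal overlapped. The distal level exceeded the proximal by 0.44 (SE 0.07, limma adjusted p = 3.69e-04) and the middle level exceeded it by 0.29 (SE 0.07, adjusted p = 0.0124). The latter was not called without the young low-fat (adjusted p = 0.0646) or the old low-fat pool (adjusted p = 0.0701).

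Cldn4, a claudin that tightens the junction and the chromosomal neighbour of Cldn3, had a wide spread between pools within each segment. It was at 10.89, 11.02, 10.68 and 11.11 proximally, 10.64, 10.96, 10.40 and 10.97 in the middle and 10.84, 10.77, 10.48 and 10.87 distally, with overlap between all segments. The distal level was below the proximal by 0.19 (difference -0.19, SE 0.07, limma adjusted p = 0.0357). This call rested on the processing: the difference was -0.01 after quantile normalization of the genes kept (adjusted p = 0.893), adjusted p was 0.186 with the pool as a random effect, and without the young high-fat, old low-fat or old high-fat pool it was 0.108, 0.119 or 0.0969.

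Ocln differed little along the intestine. It ranged from 9.91 to 10.06 proximally, from 10.06 to 10.24 in the middle and from 9.90 to 10.07 distally. Its middle level was above the proximal by 0.17 (SE 0.05, limma adjusted p = 0.0376), a call that was lost without any 1 of the pools (adjusted p from 0.0606 to 0.191) and whose direction turned when arrays were scaled by epithelial markers (-0.0075). Its distal minus proximal difference of 0.02 did not pass (95% interval -0.09 to 0.14). Cldn23 ranged from 7.74 to 7.93, 7.88 to 8.09 and 7.88 to 8.19 in the 3 segments (distal minus proximal 0.15, interval -0.03 to 0.34, adjusted p = 0.148). F11r, which helps junctions assemble, ranged from 10.73 to 10.93, 10.77 to 10.89 and 10.71 to 10.81 (distal minus proximal -0.11, interval -0.23 to -0.0040, adjusted p = 0.0744).

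**Figure D1:**
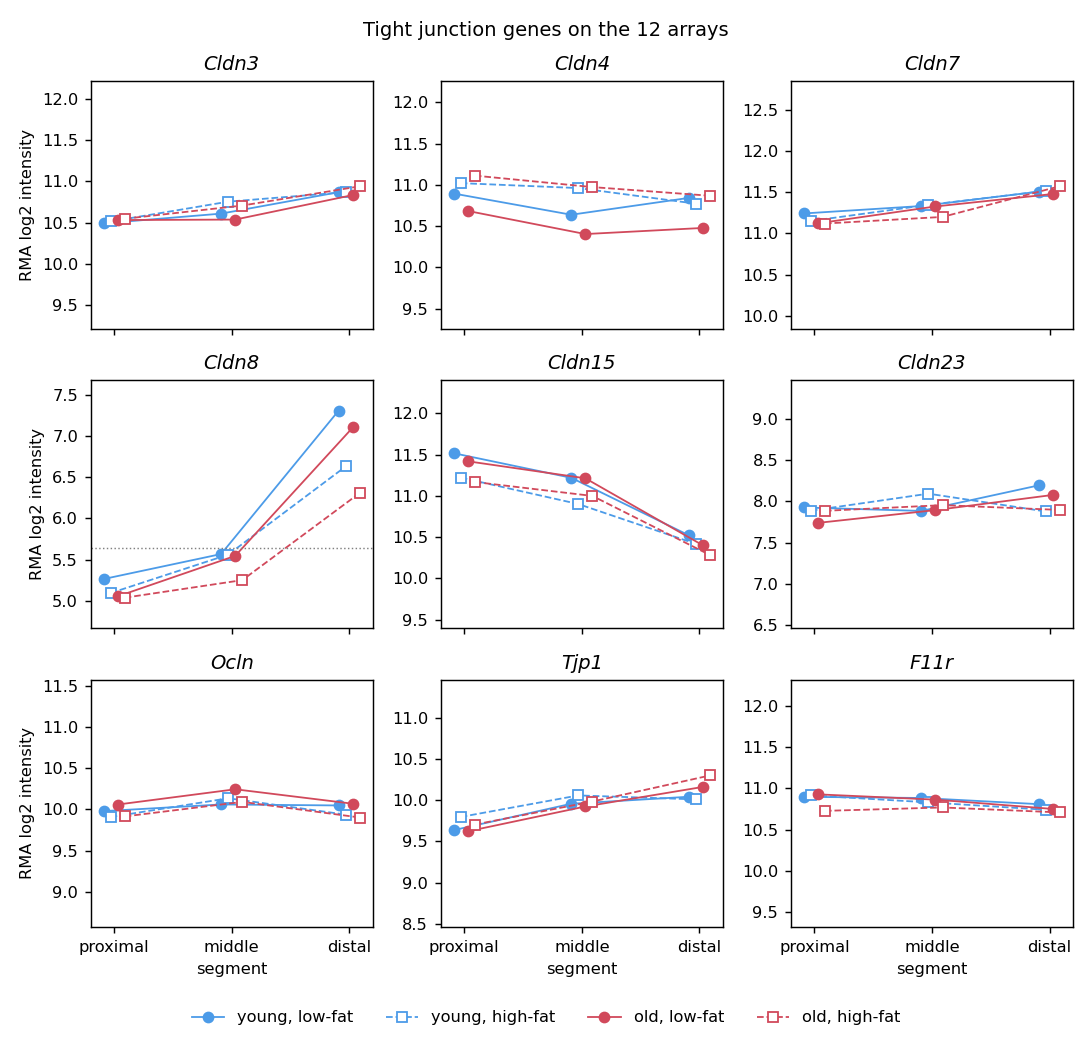
RMA log2 intensity (y axis) of the 9 tight junction genes in the proximal, middle and distal segment (x axis), 1 line for each of the 4 pools of mice; every panel spans the same number of log2 units, and the dotted line in the Cldn8 panel is the intensity limit of 50. Cldn8 climbs from at most 5.57 outside the distal segment to between 6.31 and 7.31 in it, and Cldn15 descends to between 10.28 and 10.52. The other 7 genes range over at most 0.71 across the arrays, with Cldn3, Cldn7 and Tjp1 a little higher distally than proximally.

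Counted over the list, 3 of 9 genes passed between middle and proximal (25.0% of all genes tested), with Tjp1 and Ocln higher and Cldn15 lower in the middle. Between distal and middle 4 of 9 passed (34.6% of all genes), with Cldn3, Cldn7 and Cldn8 higher and Cldn15 lower distally. Distal arrays lay entirely above proximal arrays for 4 genes, Cldn3, Cldn7, Cldn8 and Tjp1 (23.0% of all genes), and entirely below them for Cldn15 alone (23.8%). They lay above all middle arrays for Cldn3, Cldn7 and Cldn8 (13.0%) and below them for Cldn15 (16.9%), and middle arrays lay above all proximal arrays for Ocln and Tjp1 (15.8%). Cldn8 was kept only through its distal arrays, so its place in the distal counts was partly built in. Without Cldn8, the genes called between distal and middle were Cldn3, Cldn7 and Cldn15. The genes with distal arrays above all proximal arrays were then Cldn3, Cldn7 and Tjp1, and above all middle arrays Cldn3 and Cldn7.

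Most epithelial markers moved in the same direction as Cldn3, Cldn7 and Tjp1: 5 of the 8 were called higher distally than proximally and 0 lower. Their differences ran from -0.09 to 0.81, with 2 of them below 0 and a median of 0.21. With every array scaled by the mean of these 8 genes, the median difference of all genes became -0.31, and the distal minus proximal differences of Cldn3 (0.04, limma adjusted p = 0.574), Cldn7 (0.04, adjusted p = 0.513) and Tjp1 (0.12, adjusted p = 0.125) did not pass. Cldn8, kept only through its distal arrays, differed by 1.40 on this scale, and no p-value is given for it. Cldn15 stayed lower by 1.25 (difference -1.25, limma adjusted p = 1.29e-07). The scaling lowers the differences of all genes alike, and 66.2% of all genes were called lower on it; Cldn4 (-0.51, adjusted p = 1.24e-04), F11r (-0.44, adjusted p = 3.96e-05) and Ocln (-0.30, adjusted p = 8.60e-04) were also lower distally, and Cldn23 (-0.17) did not pass. The smooth muscle markers were higher distally for 8 of 8 genes, with a median difference of 1.64; their part in these results was not tested.

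**Figure D2:**
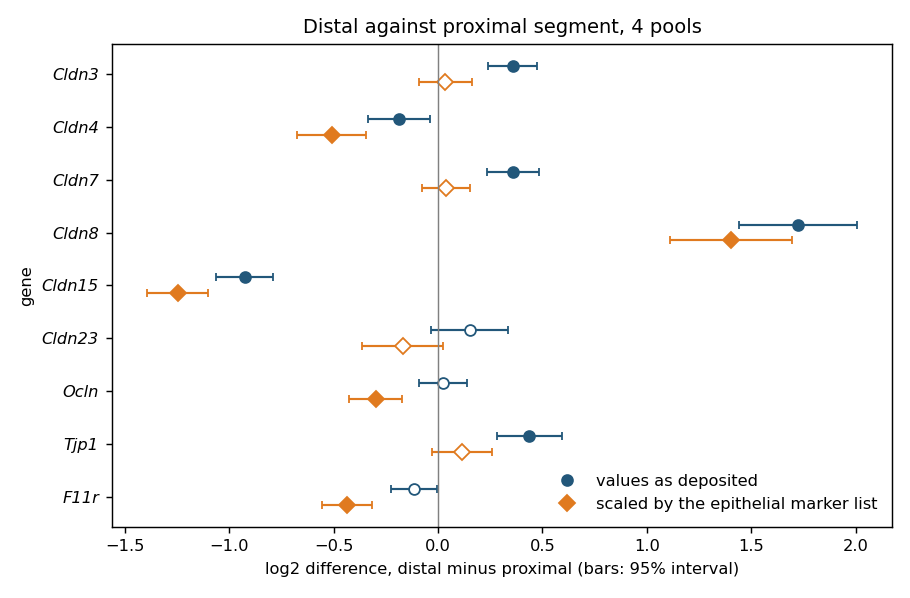
Distal minus proximal log2 difference (x axis) with its 95% interval for each gene (y axis), from the values as deposited (circles) and after scaling by the epithelial marker list (diamonds); filled symbols have an adjusted p under 0.05. Cldn15 at -0.93 and -1.25 stands away from 0 on both scales, while Cldn3, Cldn7 and Tjp1 are called only as deposited. Cldn8, at 1.72 and 1.40, was kept only through its distal arrays, so its difference is partly built in.

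The genes with the course most like that of a member were sought over the 12 arrays for the 2 members with a range over 1, Cldn8 (range 2.27) and Cldn15 (range 1.23). The 5 closest to Cldn8 by Pearson r were Acly (0.991), Me3 (0.986), Gask1b (0.982), C2 (0.982) and Wls (0.981). Acly encodes ATP citrate lyase, which supplies acetyl-CoA for fat synthesis, and Me3 a malic enzyme of mitochondria. Cldn8 was under the intensity limit (log2 5.64) on all proximal and middle arrays, so its r values rest largely on the distal rise that kept it. The means of Me3 were likewise under the limit proximally (4.85) and in the middle (5.11), and above it distally (5.94). The 5 closest to Cldn15 were Gucy2c (0.989), Ifnar2 (0.989), Smim24 (0.989), Fam114a2 (0.988) and Tdp2 (0.988); Gucy2c encodes the receptor of the gut peptides guanylin and uroguanylin. These are descriptions over 12 arrays that share 4 pools and 3 segments.

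The wider set of junction genes held 101 symbols in 5 lists, of which 71 passed the intensity limit. Between distal and proximal, 32 of the 71 were higher and 7 lower, against 27.3% and 27.5% of all genes tested. In all, 54.9% passed against 54.8% of all genes. The set thus changed about as often as other genes, but more often as higher and less often as lower. Its lists were chosen with earlier results of these data known, and they include the intestinal identity factors Cdx1 and Cdx2. The shares therefore describe the set and do not test it. Of 20 other claudins, 17 had a probe set with a single symbol and 5 were over the limit. Cldn2, the pore-forming claudin that lets cations and water pass, was at a mean of 6.78 proximally, 6.84 in the middle and 8.46 distally (distal minus proximal 1.69, SE 0.11, limma adjusted p = 6.79e-07). Cldn20 was over the limit on 1 array, a distal one, so that its higher distal value (0.33, adjusted p = 0.0237 with no intensity filter) was partly built into its being kept. Cldn5, Cldn12 and Cldn19 did not pass.

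The shares of all genes, 27.3% higher and 27.5% lower, also apply to the lists that follow. Among the other membrane proteins of the junction, 6 of 11 were higher and 1 lower distally (63.6% in all). Ildr1 (0.71) and Lsr (0.34), angulins that recruit tricellulin to the corners between 3 cells, were among them, as were Clmp (0.40) and Cd99l2 (0.33). Tricellulin itself (Marveld2), the neighbour of Ocln, was higher in the middle than in the proximal segment (0.21, limma adjusted p = 0.0136). In that comparison 25.0% of all genes passed, and the call of Ocln was lost without any 1 of the pools. Of the plaque, scaffold and polarity proteins, 7 of 20 were higher and 3 lower (10 in all). Ybx3 (0.88), a Y-box factor that binds ZO-1, was higher, and so was Afdn (0.54), an actin-binding partner of nectins, while Arhgef2 (-0.56), an exchange factor for RhoA, and Vapa (-0.55) were lower. Tjp3, which encodes ZO-3, was higher by 0.51 (adjusted p = 2.46e-04).

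Of the adherens junction and desmosome genes, 9 of 16 were higher and 1 lower distally (62.5% in all). The desmosomal proteins Evpl (0.52), Dsp (0.42) and Dsg2 (0.37) were higher and Nectin1 (-0.44) was lower. Of the regulators of junctions, 8 of 19 were higher and 2 lower (52.6% in all). Ehf, an epithelial ETS factor, rose by 2.05 (SE 0.10, limma adjusted p = 1.49e-07), and the intestinal identity factors Cdx2 (0.68) and Cdx1 (0.65) and the grainyhead-like factor Grhl2 (0.53) were also higher. Scaling by the epithelial markers shifts all genes alike, so that rises smaller than the shift turn negative, as those of Marveld2 and Cxadr did. On that scale 10 of the 71 genes were higher and 39 lower distally, against 8.87% and 66.2% of all genes. The 10 were Cdx1, Cdx2, Cldn2, Ehf, Evpl, Grhl2, Ildr1, Klf5, Tjp3 and Ybx3. The marker list and the junction lists share Epcam and Cdh1.

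**Figure D3:**
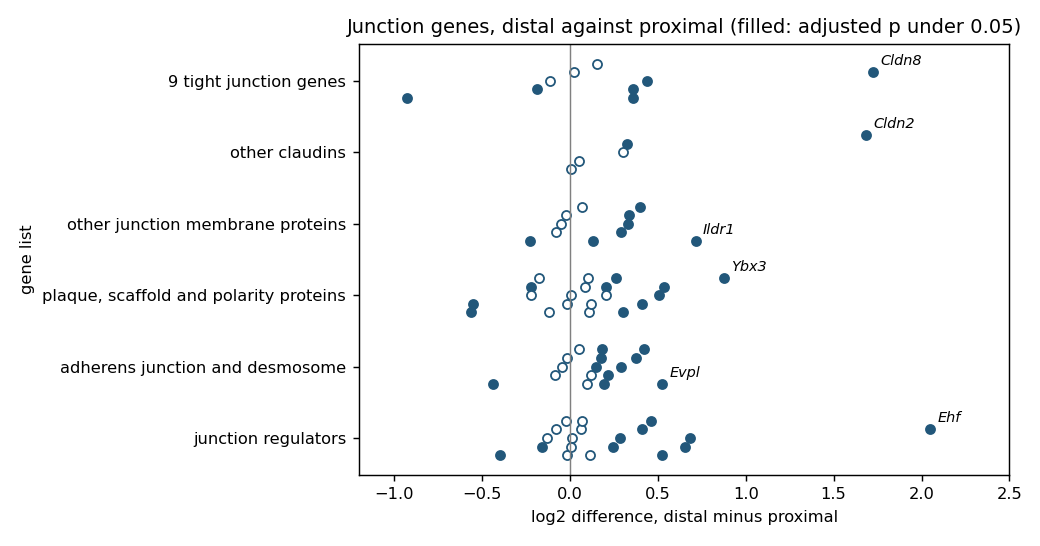
Distal minus proximal log2 difference (x axis) of the 9 tight junction genes and of the 71 further junction genes tested, by list (y axis; points are spread vertically for legibility only, and the gene farthest from 0 is named). Filled points have an adjusted p under 0.05. Ehf at 2.05, Cldn8 at 1.72 and Cldn2 at 1.69 lie far to the right of all other genes. Cldn8 was kept only through its distal arrays, so its place is partly built in.

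The second comparison was between diets. Within the distal segment Cldn8 was lower on the high-fat diet, and it was the only one of the 9 genes to pass there (1 of 9, 0.528% of all genes tested). The distal values were 7.31 on low-fat and 6.63 on high-fat in young mice, and 7.10 and 6.31 in old mice, so both high-fat arrays lay below both low-fat arrays. The difference was -0.74 (SE 0.09, 1.66-fold, limma adjusted p = 0.0245), from -0.68 in young and -0.79 in old mice. Each of these rests on 1 array a diet: without an array of the old pair the adjusted p was 0.358, and without an array of the young pair it was 0.0587.

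Cldn8 was also lower on high-fat in the young and the old pair of the proximal and middle segments, where it was under the intensity limit, and so was lower in 6 of 6 pairs. That holds for 8.54% of all genes tested. Neither of these segments passed (proximal -0.09, middle -0.15, limma adjusted p = 0.785 and 0.461). The diet difference of the distal segment exceeded that of the proximal by 0.64 in size (difference -0.64, unadjusted p = 0.00153 by limma), which did not pass over all genes (adjusted p = 0.250). Averaged over the 3 segments of a pool, so that 2 pools stood against 2, Cldn8 was lower on high-fat by 0.33 (difference -0.33, SE 0.05, adjusted p = 0.0181), again the only one of 9 (5.64% of all genes tested). Without the distal segment in the mean the difference was -0.12 (adjusted p = 0.331), and with no intensity filter adjusted p was 0.0657.

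Some markers of other cells moved with diet in the distal segment. The mean of the smooth muscle markers was 8.87 on low-fat and 8.48 on high-fat in young mice, and 8.00 and 7.36 in old mice. Of the 8 genes 7 were lower, 0 of them past the adjusted threshold and 7 at an unadjusted p under 0.05 (17.5% of all genes tested). The mean of the fibroblast markers was 8.08 on low-fat and 7.88 on high-fat in young mice, and 7.74 and 7.11 in old mice, with 0 of 5 past the threshold. Over pool means 4 of the 8 smooth muscle markers were lower on high-fat past the threshold, with a median difference of -0.26. The part of these cells in the result was not tested. The epithelial markers were at 12.22 to 12.24 and the distal segment markers at 11.28 to 11.43 on all 4 distal arrays, and scaled by the epithelial markers the Cldn8 difference was -0.72 (limma adjusted p = 0.0172).

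Cldn15 was lower on the high-fat diet in 6 of 6 pairs as well, by 0.10 to 0.32, but did not pass. For the young and the old pair, the differences were -0.30 and -0.25 proximally, -0.32 and -0.21 in the middle segment and -0.10 and -0.12 distally. Over pool means it was -0.22 (SE 0.05, 95% interval -0.33 to -0.10, limma adjusted p = 0.0524). It passed when only genes with an intensity over 100 were tested (adjusted p = 0.0323) and with an intensity trend and robust variance (adjusted p = 0.00141). In the proximal and middle segments adjusted p was 0.205 and 0.108, and with the trend 0.0169 and 0.00776.

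Cldn4 went the other way, with higher values on high-fat in 5 of 6 pairs. The old pairs differed by 0.43, 0.57 and 0.39 in the proximal, middle and distal segment, and the young pairs by 0.13, 0.32 and -0.07. Over pool means the difference was 0.29 (SE 0.08, interval 0.10 to 0.49, limma adjusted p = 0.0913); scaled by the epithelial markers it was 0.33 and passed (adjusted p = 0.0128). The old low-fat pool had the lowest Cldn4 value in all 3 segments.

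Cldn23 was lower on high-fat in both distal pairs, at 7.88 against 8.19 in young and 7.89 against 8.08 in old mice (difference -0.25, SE 0.08, limma adjusted p = 0.215). In the middle segment both of its high-fat arrays were above their low-fat partners, by 0.21 and 0.06. Ocln, Tjp1, Cldn3, Cldn7 and F11r did not pass in any diet comparison, and their pool mean differences lay between -0.10 for Ocln and 0.09 for Tjp1. Of the 9 genes, 0 passed in the proximal segment by limma (0.319% of all genes), with 1 at an unadjusted p under 0.05 (10.8% of all genes), and 0 in the middle (2.54%), with 2 (18.0%). With the intensity trend 1 gene passed in each. Among the 71 further junction genes, 0 were higher and 1 lower over pool means (1.41%, against 5.64% of all genes). The 1 gene was Elf3, an epithelial ETS factor (-0.32, adjusted p = 0.0200).

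**Figure D4:**
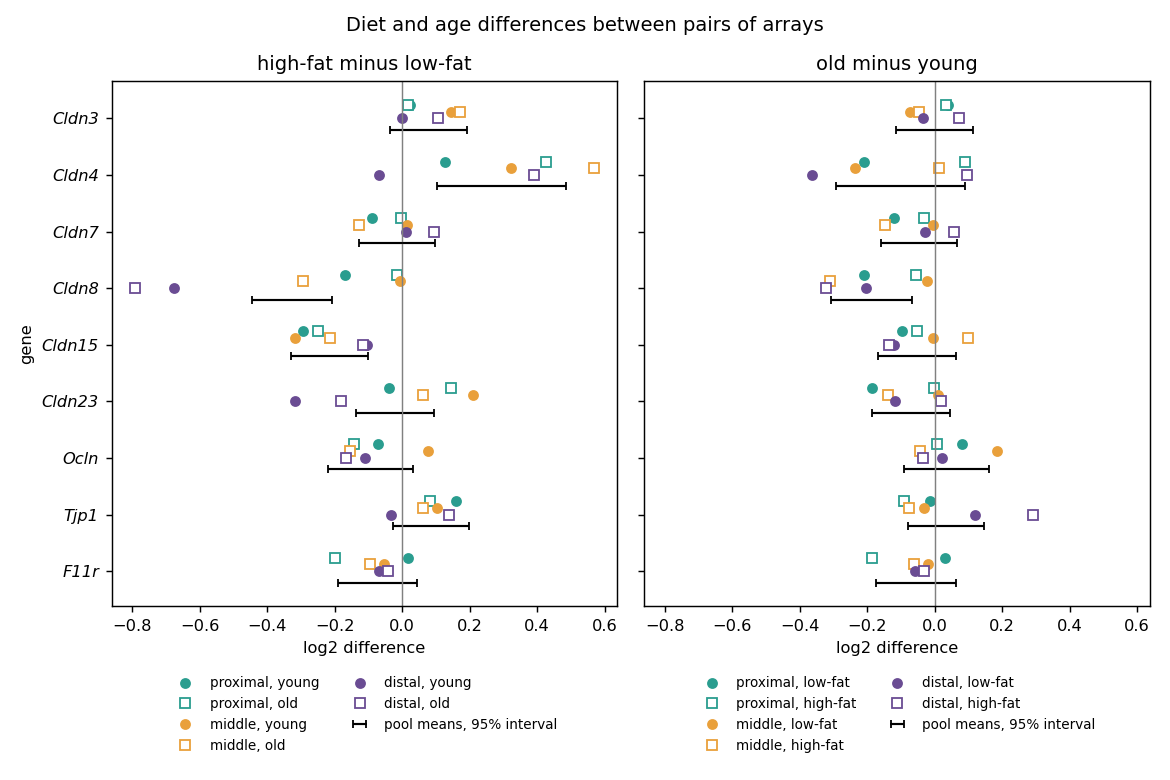
Log2 differences (x axis) of the 9 genes (y axis) between single arrays, high-fat minus low-fat on the left and old minus young on the right; colours give the segment, filled circles and open squares the age or diet of the pair, and black bars the 95% interval of the difference between pool means. The distal Cldn8 pairs at -0.68 and -0.79 lie farthest left, all 6 Cldn15 diet pairs are below 0, and the age differences stay within 0.37 of 0.

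The third comparison was between ages, and in it 0 of the 9 genes passed in any segment or over pool means. Of all genes tested, limma called 0.109% for the proximal, 0.0252% for the middle and 0.646% for the distal segment and 2.88% over pool means. At an unadjusted p under 0.05 there were 0, 0, 2 and 1 of the 9 genes (8.66%, 8.80%, 19.0% and 17.8% of all genes), and the fit with an intensity trend also called 0. Over pool means the 95% intervals of the 9 differences lay between -0.31 and 0.16.

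Cldn8 was lower in old mice in 6 of 6 pairs, by 0.02 to 0.32, as were 4.37% of all genes tested. Its distal difference was -0.26 (SE 0.09, limma unadjusted p = 0.0240, adjusted p = 0.205), and over pool means it was -0.19 (SE 0.05, adjusted p = 0.122). The smooth muscle markers were lower in old mice in the distal segment for 6 of 8 genes past the threshold, with a median difference of -1.10, and over pool means for 7 of 8; their part in the Cldn8 values was not tested. The epithelial markers did not differ past the threshold (0 of 8 in the distal segment and over pool means). Tjp1 was higher in old mice in the distal segment, at 10.16 and 10.30 against 10.04 and 10.01, but the difference of 0.20 (SE 0.08) did not pass (unadjusted p = 0.0300, adjusted p = 0.213). Its age difference in the distal exceeded that in the proximal segment by 0.26, which did not pass either (adjusted p = 0.559).

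Cldn4 differed with age in opposite directions on the 2 diets. On low-fat the old array was lower in all 3 segments, by 0.21, 0.23 and 0.36. On high-fat it was higher by 0.09, 0.01 and 0.10, each less than the SE of 0.13 of the age difference in a segment. The difference between diets was not tested, since a segment holds 1 array for each age and diet. Among the 71 further junction genes 0 rose and 2 fell over pool means in old mice (2.82%, against 2.88% of all genes). They were Clmp (-0.38, limma adjusted p = 0.0161) and Jam2 (-0.32, adjusted p = 0.0232), both membrane proteins of the immunoglobulin family. Clmp was also lower in the old distal segment (-0.58, adjusted p = 0.0464). Jam2 was near the intensity limit, above it on 5 young arrays and 1 old array. Markers of other cells moved the same way over pool means: 5 of 5 fibroblast markers were lower in old mice past the threshold (median -0.44), as were 3 of 6 endothelial (median -0.25) and 7 of 8 smooth muscle markers (median -0.81). Their part in the Clmp and Jam2 values was not tested.

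By the 2-fold limit between single arrays that the methods of the study use, 0 of the 9 genes differed in any of the 12 age and diet pairs, where 1.98% of all genes tested did so in at least 1. At 1.5-fold the count was 1, Cldn8, through both distal diet pairs.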

How the data were processed

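RNA from scrapings of the small intestine, pooled over mice, was hybridised to 12 arrays, 1 for each segment, age and diet. The authors deposited log2 values made with RMA (background correction, quantile normalization and 1 summary per probe set); the version is not given in the sources used here. Array medians ran from 5.57 to 5.70. The platform annotation gives 21789 of 35556 probe sets a single symbol, and the brightest of these stood for a gene (19938 genes). A gene was kept where any array had an intensity over 50, 24 pancreatic acinar genes were removed, and 11924 were tested.

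limma 3.58.1 (R 4.3.3, statmod 1.5.0) was fitted to all of them: segment with pool as a fixed block (6 residual degrees of freedom), age and diet within each segment (3), and age and diet over pool means (1), with Benjamini-Hochberg adjustment. The fit within segments treats the 3 arrays of a pool as separate, though they share mice (correlation within pools -0.08). The young and old pairs repeat the diet difference and the diets repeat the age difference, so p-values measure the spread between these pooled arrays. The script was tested on simulated data. Alternatives covered the filter, acinar genes, scaling, probe set rule, variance model, pool term, and arrays, pools or segments left out.

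The 9 genes and all lists were chosen with earlier results of these data known. Named beside them are every called claudin, up to 4 called genes of each junction list with the largest difference, and the 5 genes most like a member with a range over 1. The remaining junction genes, such as Tjp3, Marveld2, Klf5, Cxadr, Cdh1 and Epcam, were named after their values were seen. Array number limits the precision. Promoter windows came from RefSeq (GRCm38.p6), read with Python 3.11.15.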

Additional observations from a re-analysis of the deposited data

How the results depend on the processing

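With 1 array of pooled RNA for each segment, age and diet, the tests rest on 4 pools, and intensities near background, as those of Cldn8 outside the distal segment, compress differences. Segments were compared within pools, which pairs them by mice. For age and diet, no paired analysis was possible because the groups are different mice and hold 1 array each. The count of called genes between middle and proximal rose from 3 to 5 after quantile normalization and to 5 with an intensity trend and robust variance, and ran from 0 to 3 with each pool left out (0 without the young low-fat or the old low-fat pool). Between distal and middle it ran from 2 to 4 with each pool left out, and between distal and proximal from 5 to 6. These counts are over a list with Cldn8, which was kept only through its distal arrays. For diet, the trend gave 1 gene (Cldn15) in the proximal and 1 (Cldn15) in the middle segment in place of 0, and the 4 arrays of the middle segment alone gave 1 (Cldn4); in the distal segment the count ran from 0 to 0 with each array left out, against 1. Over pool means the diet count of 1 became 0 with no intensity filter, 2 at an intensity over 100, 2 when scaled by the epithelial markers, 2 with the trend and 0 without the distal segment. At 1.5-fold in place of 2-fold, 1 gene passed between single arrays. The Ocln difference between middle and proximal turned from 0.17 to -0.0075 when scaled by the epithelial markers. It was the one difference called in the main fit to change sign. The cause of these shifts was not tested. Single genes were followed only in comparisons where the main limma fit gave an unadjusted p under 0.05. Of these recomputed values, 404 kept their side of the threshold, 34 lost and 20 gained a call. Among them a change of direction was counted only where one of the fits called the gene. Differences outside this set could change sign too, as that of Ocln between distal and proximal did when scaled by the epithelial markers.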
